A study of Mus musculus with 2 samples.

Results

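The genes described here encode the longest proteins in the annotation of the mouse: those with a protein-coding transcript whose coding sequence is 9000 nucleotides or longer. Of 21874 protein-coding genes in a table of 45578 genes, 145 reached that length. Dynein heavy chains named Dync, cadherins named Cdh, collagens, sodium and calcium channels (Scn, Cacn), Ank2, Ank3, Reln, Vcan, Bsn, Pclo, Map1a and Map1b were set aside by name. This removed 10 genes and left 135 members. The 10 were Dync1h1, Dync2h1, Map1a, Reln, Vcan, Bsn, Pclo, Col12a1, Col6a3 and Cdh23. Ank2, Ank3 and Map1b, at 4861, 8612 and 7395 coding nucleotides, did not reach the length. Each member is represented by its longest coding sequence, from 9000 nucleotides (Trank1) to 105642 nucleotides (Ttn, the muscle protein titin, 35213 residues), with a median of 11577 against 1167 for all protein-coding genes. The rule used annotated lengths and gene names and no count, but it was set with earlier results of these data known.

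The measurements are ribosome footprints from brain lysates of control animals of the Taiwanese spinal muscular atrophy strain on a congenic FVB background, taken at postnatal day 5. All animals had the genotype Smn+/-; SMN2tg/0, so they lacked 1 copy of the mouse Smn gene and carried the human SMN2 transgene. RiboLace captures ribosomes on beads that carry a puromycin analogue, which binds ribosomes engaged in translation; the fragments they protected were then sequenced. There were 2 biological replicates of this 1 group and no other condition, each described in the labels as coming from a control mouse brain.

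A long messenger RNA holds more ribosomes at the same spacing, and each ribosome needs longer to reach the stop codon. The giant proteins of the brain are of several kinds. Endocytic receptors and cadherin-type receptors stand on the cell surface with long chains of repeated modules, cytolinkers tie actin filaments to microtubules, and the largest ubiquitin ligases mark other proteins for degradation. Others are lipid transfer proteins, chromatin regulators, or building blocks of muscle and of motile cilia.

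Counts are given for replicate 1 and then replicate 2. Replicate 1 held 333788 counts at the gene level and replicate 2 held 116533, a ratio of 2.86, so every value is more precise in replicate 1. A level is given as footprint density, the CPM (counts scaled to the library's size) divided by the coding length in kilobases (kb), which lets genes of different length be compared. No total RNA was analysed here, so more messenger RNA and more ribosomes per messenger RNA cannot be told apart, nor can fewer cells of a type and less RNA per cell. Neuronal markers summed to 6593 and 7863 CPM and astrocyte and radial glia markers to 2574 and 2839 CPM, so the defining markers of brain were present. Erythroid markers, mostly globins, summed to 3919 and 4277 CPM, above the astrocyte and radial glia markers. Of 6 skeletal muscle markers, Ckm and Tnnt3 had no count, and Acta1, an actin whose fragments can match other actins, held 70 of the 79 and 22 of the 24 counts.

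The members held 2204 counts in replicate 1 and 774 in replicate 2. That was 0.660% of gene counts (95% Wilson interval 0.633 to 0.688) and 0.664% (0.619 to 0.712), or 0.662% ± 0.0028 (SD, n = 2), so the replicates gave the same share within counting error. Intervals and detection limits cover counting error only and no variation between replicates. PCR copies are not independent molecules and would make these intervals too narrow. Protein-coding genes held 269767 of the 333788 gene counts in replicate 1 and 84176 of the 116533 in replicate 2. Among their counts alone the members' share was 0.817% (0.784 to 0.852) and 0.920% (0.857 to 0.986), and these intervals did not overlap. The equal share thus held for all gene counts and not for coding counts. The members make up 5.00% of the summed coding length. A mean of at least 10 counts was reached by 45 of the 135 members, or 33.3%, against 19.1% of all protein-coding genes; a long gene passes this filter at a lower density, so these shares do not compare levels. Another 68 members had fewer counts, and 22 had none in either replicate (16.3%, against 36.3% of protein-coding genes). The median density over all 135 members was 1.78 CPM per kb in replicate 1 and 1.98 in replicate 2, and that of all protein-coding genes was 3.94 and 0. The coding median was 0 in replicate 2 because only 49.8% of coding genes had a count there, against 61.4% in replicate 1. It therefore does not place the members above coding genes. At the members' median length the detection limit was 0.723 CPM per kb in replicate 1 and 2.39 in replicate 2, so 1.98 lies below it.

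A few members carried much of the signal. The 10 members with the most counts over both replicates held 41.4% of the members' counts in replicate 1 and 38.9% in replicate 2, and Lrp1 alone held 11.9% and 13.2%.

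**Figure D1:**
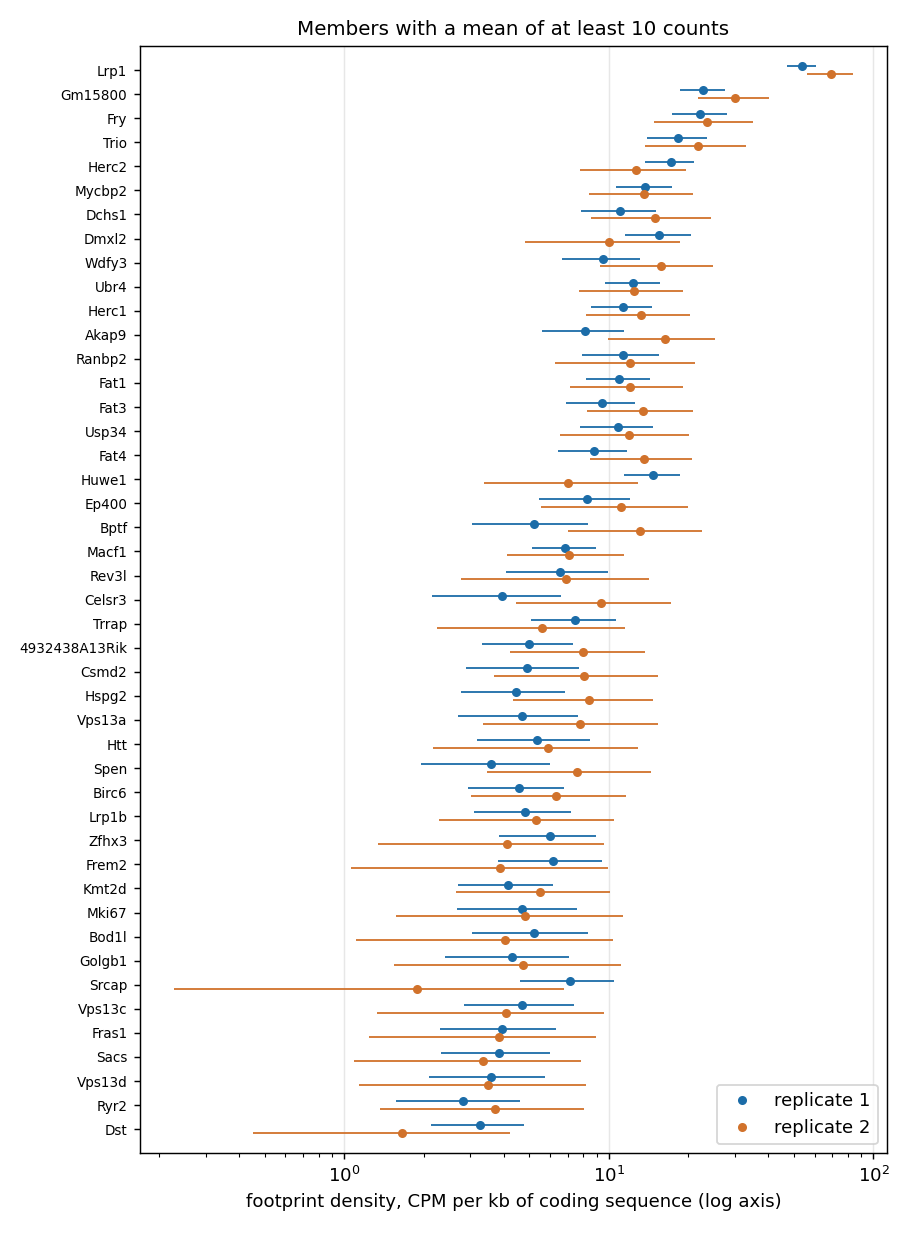
Footprint density in CPM per kb of coding sequence (log axis) of the 45 members that averaged 10 counts or more, as 1 point per replicate and bars for the 95% exact Poisson interval of the count. Lrp1 stands at 53.6 and 68.9, to the right of all other members, and the rest form a continuous series down to Dst at 3.26 and 1.66.

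Among the endocytic receptors of the low-density lipoprotein receptor family, Lrp1 was the densest of all members. Lrp1 takes up apolipoprotein E and many other ligands and is made by neurons and glia. It lies on chromosome 10 at 127538157 to 127621148 (GRCm38) and has a coding sequence of 13638 nucleotides. Lrp1 had 262 and 102 counts, or 53.6 CPM per kb (95% exact Poisson interval 47.3 to 60.5) and 68.9 (56.2 to 83.7), a mean of 61.3 ± 10.9 (SD, n = 2). That density was higher than in 89.1% of all protein-coding genes. Lrp1b, a related receptor, had 24 and 8 counts, 5.06 CPM per kb ± 0.346 (SD, n = 2). Lrp2, the megalin of absorptive epithelia, had no count in either replicate, which allows up to 0.598 and 1.98 CPM per kb. Cubn, the partner of megalin, had 1 count in replicate 1 and none in replicate 2.

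The relatives of Lrp1 were thus far apart in both libraries. The density of Lrp1 was 11.1 times that of Lrp1b in replicate 1 (95% exact interval 7.31 to 17.7) and 12.99 times in replicate 2 (6.35 to 30.9). Against a floor of 3 counts per library for Lrp2, Lrp1 was at least 89.5-fold higher in replicate 1 and at least 34.9-fold higher in replicate 2, and with the counting error of both genes the exact 95% lower limits were 72.3 and 27.8. Lrp1b was at least 8.05-fold higher than Lrp2 in replicate 1, and in replicate 2 at least 2.68-fold higher, with exact 95% lower limits of 6.06 and 1.72.

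Ubiquitin ligases and deubiquitinases were the group with the highest median density among the lists of members, 12.3 CPM per kb over 9 genes, of which 8 passed the count filter. They held 24.2% and 20.7% of the members' counts. The densest was Gm15800, named Hectd4 in the current gene table, a HECT-domain ubiquitin ligase on chromosome 5 at 121219513 to 121368577. Gm15800 had 108 and 43 counts, or 22.7 CPM per kb (18.6 to 27.4) and 29.9 (21.6 to 40.3). Herc2, a HECT ligase with a role in DNA repair, had 89 and 20 counts and a mean of 14.9 CPM per kb ± 3.11 (SD, n = 2). Mycbp2, a ligase that shapes axons and synapses, had 70 and 21 counts and stood at 13.7 CPM per kb in replicate 1 and 13.6 in replicate 2. Ubr4, which recognises N-terminal degradation signals, had 69 and 21 counts and stood at 12.4 and 12.5. Huwe1, a HECT ligase encoded on the X chromosome, had 69 and 10 counts and a mean of 10.8 CPM per kb ± 5.40 (SD, n = 2). Herc1 had 59 and 21 counts, 12.3 CPM per kb ± 1.41 (SD, n = 2). The deubiquitinase Usp34 had 42 and 14 counts and a mean of 11.4, and Birc6, an inhibitor of apoptosis, 24 and 10 counts and a mean of 5.43. The low member was Rnf213, a ligase known from vascular disease and immune cells, with 3 counts in replicate 1 and none in replicate 2.

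Within this group, the relatives Herc1 and Herc2 were compared as a pair. Herc1 had 0.66 times the density of Herc2 in replicate 1 (95% exact interval 0.467 to 0.927) but 1.05 times in replicate 2 (0.539 to 2.03), so the pair did not differ in both libraries.

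Cytolinkers, which join cytoskeletal filaments to each other or to membranes, had a median density of 2.43 CPM per kb over 9 genes. All 9 had counts and 3 passed the filter. Fry, a large scaffold of the NDR kinase pathway placed in this list, was the densest with 72 and 23 counts, or 22.2 CPM per kb (17.3 to 27.9) and 23.4 (14.8 to 35.1). Its relative Fryl had 13 and 5 counts. The density of Fry was 5.51 times that of Fryl in replicate 1 (95% exact interval 3.03 to 10.9) and 4.58 times in replicate 2 (1.70 to 15.4). The spectraplakins crosslink actin and microtubules: Macf1 had 54 and 17 counts, 6.96 CPM per kb ± 0.195 (SD, n = 2), and Dst had 26 and 4 counts, 2.46 ± 1.13 (SD, n = 2). On the longest isoforms Macf1 had 2.09 times the density of Dst (1.29 to 3.48) in replicate 1 and 4.28 times (1.40 to 17.5) in replicate 2. On the isoforms with the highest count the ratio over both replicates fell from 2.38 to 1.63 (1.10 to 2.45), and the pair no longer differed in each library. Dystrophin (Dmd) had 9 and 3 counts and its relative utrophin (Utrn) 8 and 3. Their ratio of 1.05 in replicate 1 (0.359 to 3.13) and 0.933 in replicate 2 (0.125 to 6.96) left room for a difference of several fold in either direction. Syne2, a nesprin that anchors nuclei, had 7 and 6 counts.

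Giant cadherin-type and other adhesion receptors numbered 16, with a median density of 1.90 CPM per kb, and 6 passed the filter. The protocadherin-like receptors of planar polarity led this group. Dchs1 had 39 and 16 counts, 12.97 CPM per kb ± 2.77 (SD, n = 2), and Fat4, its binding partner, 47 and 22 counts, 11.2 ± 3.39 (SD, n = 2). Fat1 had 54 and 18 counts, 11.5 ± 0.786 (SD, n = 2), and Fat3 had 46 and 20 counts, 11.4 ± 2.90 (SD, n = 2). Fat2, the member of this family known from cerebellar granule cells, had only 7 and 3 counts.

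Fat2 was below its relatives in both libraries. Fat1 had 7.31 times the density of Fat2 in replicate 1 (3.32 to 19.05) and 5.69 times in replicate 2 (1.66 to 30.1). Relative to Fat3 and Fat4, Fat2 stood at 0.159 (0.0606 to 0.355) and 0.170 (0.0650 to 0.380) in replicate 1, and at 0.157 and 0.156 in replicate 2. No difference was detectable among Fat1, Fat3 and Fat4: over both replicates Fat1 was 1.08 times Fat3 (0.764 to 1.53) and 1.13 times Fat4 (0.803 to 1.60), and Fat3 was 1.05 times Fat4 (0.736 to 1.49). Dchs1 had 5.66 times the density of Dchs2 in replicate 1 (2.51 to 15.01) and 8.13 times in replicate 2 (1.91 to 72.9). Celsr3, an adhesion receptor that guides axon tracts, had 14 and 10 counts and Celsr1, known from neural tube closure and progenitors, 3 and 1. Celsr1 stood at 0.233 times the density of Celsr3 (0.043 to 0.835) in replicate 1 and 0.109 times (0.0025 to 0.765) in replicate 2.

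The Csmd receptors, which carry complement-type modules, were less clearly ordered. Csmd2 had 18 and 9 counts, Csmd1 13 and 4, and Csmd3 12 and 1. Csmd2 exceeded Csmd3 in replicate 2 by a ratio of 9.75 (1.35 to 427) but in replicate 1 by 1.62 (0.740 to 3.70), an interval that includes 1. The other pairs of this family had intervals that include 1 in both replicates.

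Proteins of membrane trafficking, lipid transfer and large scaffolds had a median density of 3.60 CPM per kb over 13 genes, of which 8 passed the filter. Wdfy3, an autophagy scaffold needed for brain wiring, led with 36 and 18 counts, 12.6 CPM per kb ± 4.38 (SD, n = 2), whereas Wdfy4, its relative of antigen-presenting cells, had 1 and 1. The ratio was 32.2 in replicate 1 (5.41 to 1305) and 16.1 in replicate 2 (2.54 to 670). Huntingtin (Htt) had 18 and 6 counts and a mean of 5.63. The Vps13 proteins carry lipids between membranes at contact sites, and their mean densities ran from 2.70 CPM per kb (Vps13b) to 6.23 (Vps13a). Vps13a had 16 and 8 counts, Vps13b 10 and 4, Vps13c 19 and 5, and Vps13d 17 and 5. None of their 6 pairs differed in both replicates, and in each replicate all 6 intervals included 1. Over both replicates Vps13a had 2.16 times the density of Vps13b (1.07 to 4.52), and the other 5 intervals included 1.

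Chromatin and transcription regulators numbered 12 with a median of 4.73 CPM per kb, and 8 passed the filter. Ranbp2, a nuclear pore protein placed in this list, was the densest with 37 and 12 counts, 11.7 CPM per kb ± 0.572 (SD, n = 2). Ep400, an ATPase of the TIP60 complex, had 27 and 11 counts and a mean of 9.70. The histone H3 lysine 4 methyltransferases Kmt2d and Kmt2c had 25 and 10 and 13 and 5 counts. Kmt2c stood at 0.593 times the density of Kmt2d (0.278 to 1.203) in replicate 1 and 0.570 times (0.153 to 1.83) in replicate 2, a difference not detectable at this depth. Zfhx3, a homeodomain factor of differentiating neurons, had 24 and 5 counts and Zfhx4 6 and 3. Their ratio of 3.87 in replicate 1 (1.54 to 11.6) had no counterpart beyond counting error in replicate 2, where it was 1.61 (0.314 to 10.4).

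Kinases of the PI3K-related family, genome maintenance and cell division proteins numbered 10 with a median of 2.65 CPM per kb, and 3 passed the filter. Akap9, a scaffold of the centrosome and Golgi, was the densest at 33 and 20 counts, 12.2 CPM per kb ± 5.76 (SD, n = 2), from 8.12 in replicate 1 to 16.3 in replicate 2. Trrap, a pseudokinase of histone acetyltransferase complexes, had 31 and 7 counts. Mki67, the marker of dividing cells, had 16 and 5 counts and stood at 4.68 and 4.83 CPM per kb. The DNA damage genes Atm, Prkdc and Brca2 had 4, 5 and 2 counts in replicate 1 and 2, 0 and 0 in replicate 2.

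Of the ryanodine receptors, which release calcium from internal stores, Ryr2 was the densest with 15 and 6 counts. Ryr3 had 7 and 1, and Ryr1, the skeletal muscle form, had 0 and 1. None of their 3 pairs differed in each replicate on its own. Over both replicates the exact 95% intervals excluded 1 for all 3: Ryr1 stood at 0.047 times the density of Ryr2 (0.0011 to 0.292) and at 0.121 times that of Ryr3 (0.0027 to 0.905), and Ryr2 at 2.58 times that of Ryr3 (1.10 to 6.75). Unc80, a subunit of the sodium leak channel complex, had 10 and 7 counts and was the densest in this list of 4, which had a median of 2.12 CPM per kb.

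The list of basement membrane, matrix and other secreted proteins had a median density of 0.165 CPM per kb over 17 genes; 3 passed the filter and 7 had no count. It includes 5 secreted proteins that are not matrix, the mucins Muc4, Muc5ac and Muc5b of epithelial mucus, the lipoprotein Apob and the sperm protein Zan, and all 5 were at 0. The median of the other 12 genes, a split made after the values were seen, was 1.47 CPM per kb. Perlecan (Hspg2), a proteoglycan of basement membranes, was the densest with 21 and 12 counts, 6.43 CPM per kb ± 2.80 (SD, n = 2). Frem2 and Fras1, which anchor epithelial basement membranes, also passed the filter, with 21 and 4 counts and 17 and 5 counts. The laminin chains Lama1, Lama2 and Lama5 had 10, 15 and 6 counts in replicate 1 and 5, 2 and 1 in replicate 2, and no pair of them differed in both replicates.

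Muscle and ciliary giants had few or no counts. Of the 7 sarcomere genes, none passed the filter, and all 7 together had 11 and 10 counts. Ttn had no count, although at 105642 nucleotides a density as low as 0.0792 CPM per kb in Ttn would give 3 counts in replicate 1. Speg, which is also made outside skeletal muscle, was the densest in this list with 7 and 4 counts and a mean of 2.88 CPM per kb. Cmya5 had 3 and 5 counts and a mean of 2.47. Both means lie above the median of 1.89 over all members. The 15 genes of axonemal dyneins and motile cilia, known from ependymal cells in the brain, had 25 and 12 counts in all and a median of 0.346 CPM per kb. Dnah5, the densest, had 1 and 4 counts. Dnah7a, Dnah7b and Dnah7c are near-identical copies with 4, 2 and 3 counts in replicate 1 and none in replicate 2, and their counts can be shared. Of 4 markers of ependyma and choroid plexus, Ttr, a secreted product of the choroid plexus, had 395 and 153 counts, whereas Foxj1, Ccdc153 and Rsph1, known from motile cilia, had 6, 1 and 2 counts in replicate 1 and 2, 0 and 1 in replicate 2. The 4 markers together had 404 and 156 counts, and the part of these cells in the ciliary values was not tested.

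Of the 20 members in no list, 3 passed the filter. Trio, a guanine nucleotide exchange factor that acts in axon growth, had 61 and 22 counts, or 18.3 CPM per kb (13.98 to 23.5) and 21.8 (13.65 to 32.97). Dmxl2, a regulator of the vesicular proton pump, had 51 and 10 counts, 12.8 ± 3.86 (SD, n = 2). Rev3l, the catalytic subunit of DNA polymerase zeta, had 22 and 7 counts. Fsip2, a sperm protein, Hrnr, a protein of the outer skin, and Myo15, a motor of inner ear hair cells, had no count.

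The 15 densest members were Lrp1, Gm15800, Fry, Trio, Herc2, Mycbp2, Dchs1, Dmxl2, Wdfy3, Ubr4, Herc1, Akap9, Ranbp2, Fat1 and Fat3, in that order, and Usp34 followed. Of the 15 steps between neighbours from Lrp1 to Usp34, 1 was larger than the counting error in both replicates: Lrp1 had 2.36 times the density of Gm15800 in replicate 1 (95% exact interval 1.88 to 2.98) and 2.31 times in replicate 2 (1.60 to 3.37). The other 14 steps were within it in at least 1 replicate, so the order of those neighbours is not resolved. Members further apart can still differ. The 95% Poisson intervals of Gm15800 and Fat3 did not overlap in replicate 1 (18.6 to 27.4 against 6.88 to 12.5) or replicate 2 (21.6 to 40.3 against 8.25 to 20.8).

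**Figure D2:**
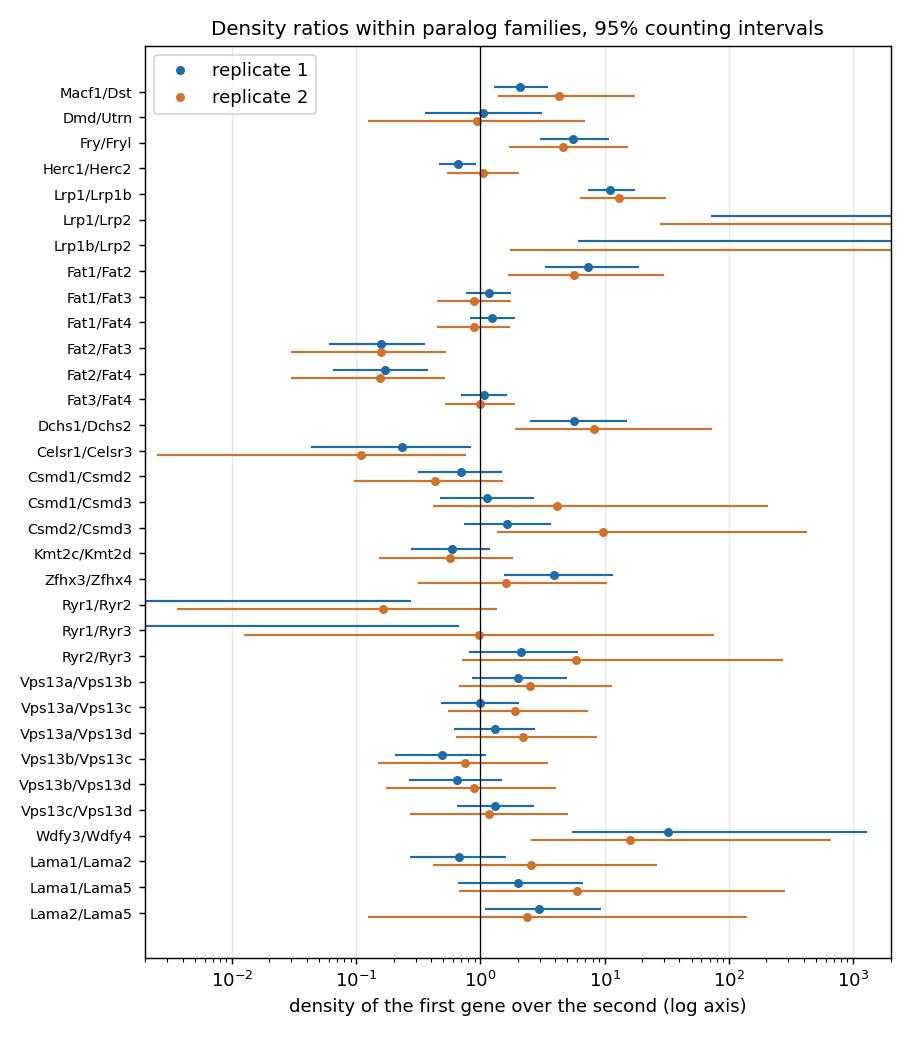
Ratio of footprint densities (log axis) for the 33 pairs of related members, the first gene over the second, with 1 point per replicate and bars for the 95% exact interval of counting error. Bars that run to the edge belong to pairs in which 1 gene had no count, and for 11 pairs both bars lie on the same side of 1.

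Over all 33 pairs of relatives, 11 differed in both replicates by intervals that exclude 1 on the same side, and 22 did not. These intervals are not adjusted for the number of pairs. The 11 pairs were Macf1 and Dst, Fry and Fryl, the 3 pairs among Lrp1, Lrp1b and Lrp2, the 3 pairs of Fat2 with its relatives, Dchs1 and Dchs2, Celsr1 and Celsr3, and Wdfy3 and Wdfy4. Among the other 22, the interval over both replicates together excluded 1 for Herc1 and Herc2, Csmd2 and Csmd3, Zfhx3 and Zfhx4, Vps13a and Vps13b, Lama2 and Lama5, and the 3 pairs of ryanodine receptors.

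With 1 group, the comparison of samples that the design allows is replicate 2 against replicate 1. None of the 45 members past the filter differed between the libraries at an adjusted p under 0.05 in the exact binomial test, where 4.14% of the 5221 genes tested did (216 genes; 211 of them, or 4.04% of those tested, were higher in replicate 2) and 0.79% of the protein-coding genes tested. At an unadjusted p under 0.05 there were 5 members, against 9.9% of all genes tested and 5.84% of protein-coding genes. An exact test in edgeR with a preset biological coefficient of variation of 0.2 also called 0 members, where it called 2.45% of all genes tested. At an unadjusted p under 0.05 it gave 0 members, against 4.88% of all genes. The test compares the reads of these libraries, not conditions. The median counting SE of a member's log2 ratio between the replicates was 0.52. Small differences would thus be missed, and the absence of calls does not show equal values.

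Those 5 members, named after their values were seen, were Bptf, Akap9, Huwe1, Lrp1 and Celsr3. Bptf, a subunit of a chromatin remodelling complex, had 17 and 13 counts and stood 1.32 higher in replicate 2 on the log2 scale (SE 0.52, from counting alone). Its adjusted p of 0.250 in the exact binomial test was the lowest among the members, and those of the other 4 ran up to 0.496. The same difference was 0.99 (SE 0.41) for Akap9 and 1.22 (SE 0.59) for Celsr3. For Huwe1 the value was -1.05 (SE 0.48), and it was the only one of the 5 that was lower in replicate 2. Lrp1 differed by 0.36 (SE 0.17).

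The log2 ratios of the 45 members, replicate 2 over replicate 1 on the scale of log2(CPM + 1), ran from -1.86 (Srcap, 25 and 2 counts) to 1.32, with 31 above 0 and 14 below. Their median was 0.14, beside 0.0021 for all genes tested and -0.012 for the protein-coding genes tested. Scaling by library totals instead moved the median of all genes to -0.20 and that of the members to -0.066, and without the filter the medians were -0.29 and -0.031. The median counting SE of a member's log2 ratio was 0.52. Across the 135 members, log2(CPM + 1) in the libraries had a Pearson r of 0.847 and a Spearman coefficient of 0.888; across the 45 past the filter r was 0.812 and across the 4177 coding genes past it 0.841. These are correlations across genes of the same 2 libraries, given as a description.

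**Figure D3:**
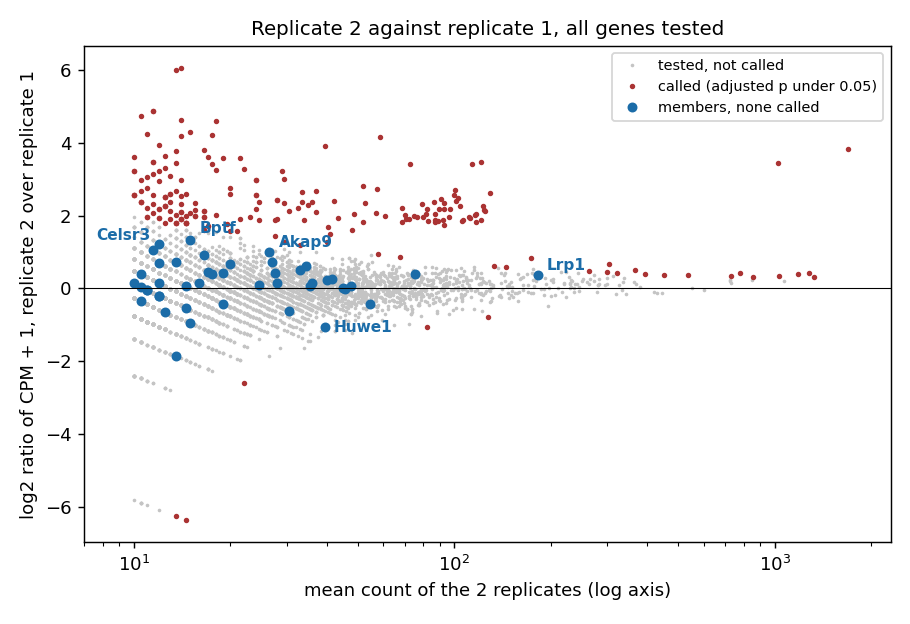
Log2 ratio of replicate 2 over replicate 1 against the mean count (log axis) for the 5221 genes tested, 1 point per gene. The 45 members (blue) lie among the genes that were not called (grey), and the called genes (red) lie mostly above 0.

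Many members have several annotated isoforms, each with a count of its own in the table. Of the 135 members, 57 had more than 1 coding isoform of at least 9000 nucleotides. In 24 of these with at least 20 counts on 1 isoform, the highest isoform count was at the median 1.10 times the lowest and at most 2.00 times (Vps13d). The isoform counts of a gene were thus close to each other but not always equal: the 2 Ryr2 isoforms of 14901 coding nucleotides had 15 and 6, and 18 and 5 counts.

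In Macf1 a longer isoform did not always hold more counts. Its longest isoform, of 22068 coding nucleotides, had 54 and 17 counts, and one of 22056 nucleotides had 64 and 24. An isoform of 15987 nucleotides, or 72.4% of that length, had 59 and 21 counts, and so a density of 11.2 CPM per kb ± 1.28 (SD, n = 2) in place of 6.96. Dst was similar, with 26 and 4 counts on 22221 nucleotides and 31 and 7 counts on 15528 nucleotides. With counts this low, and with fragments that isoforms may share, differences between the isoforms of a gene were not tested. For Dmd, the isoform of 11037 nucleotides had 9 and 3 counts. A short isoform of 1854 coding nucleotides had 9 and 0, and another of 1815 nucleotides 6 and 1. The brain is known to make short dystrophins from internal promoters, and the table does not name its isoforms after them. In Birc6, 5 isoforms between 14562 and 14649 nucleotides had 24 to 35 counts in replicate 1 and 7 to 13 in replicate 2.

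**Figure D4:**
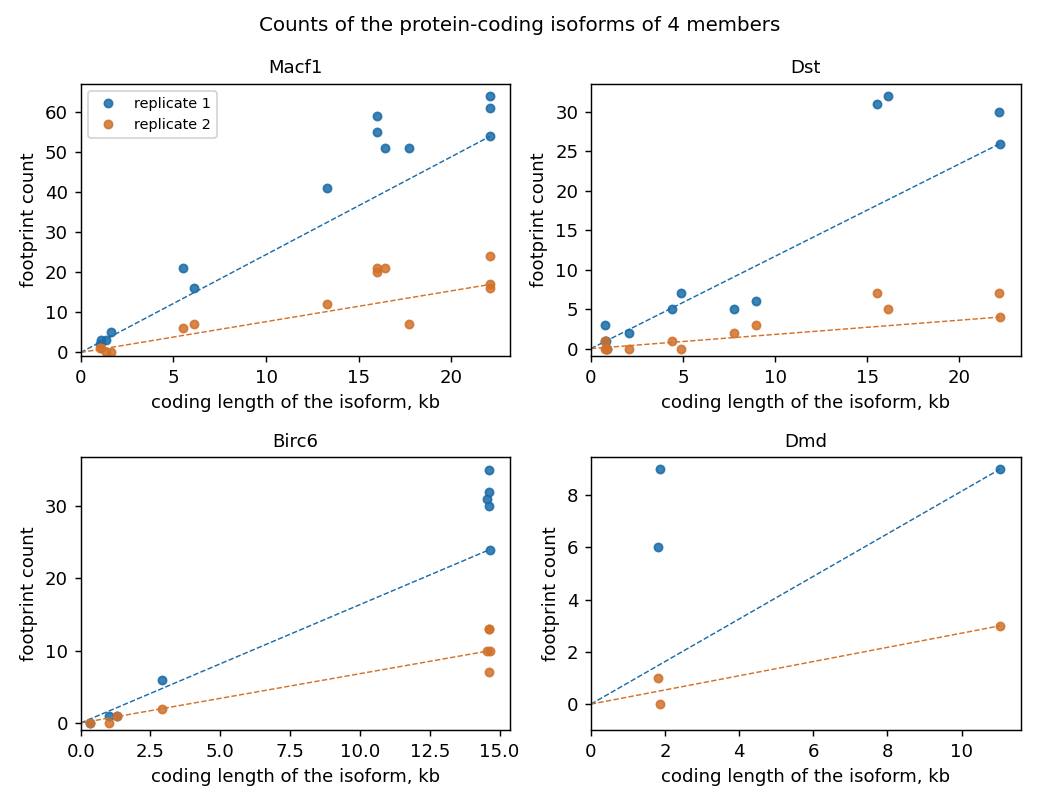
Footprint count against coding length in kb for every protein-coding isoform of Macf1, Dst, Birc6 and Dmd, with 1 point per isoform and replicate and a dashed line for the density of the longest isoform. The Macf1 isoform of 15987 nucleotides and the Dst isoform of 15528 nucleotides lie above the line, as do the short Dmd isoforms in replicate 1.

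Set beside the other coding genes, the members had the lowest pooled density (summed CPM over summed kb) of the length classes compared. It was 39.7 and 41.1 CPM per kb for coding sequences under 1000 nucleotides, 22.4 and 23.0 from 1000 to under 3000, 11.3 and 11.4 from 3000 to under 6000, 10.5 and 11.7 from 6000 to under 9000, and 3.50 and 4.06 for the members. The members lack the 10 genes left out by the rule. All 145 genes of at least 9000 nucleotides stood at 4.52 and 5.32 CPM per kb. The median over genes behaved differently, because most of the shortest genes had no count. It was 0 under 1000 nucleotides and 5.64, 5.02 and 5.02 CPM per kb in the next 3 classes. For the members it was 1.89, and for all 145 genes of at least 9000 nucleotides 2.05. Density is computed with the length that chose the members, so these values are a description. Among the members themselves the Spearman coefficient of density with coding length was -0.214 and with the genomic span of the gene 0.101 (n = 135 each). Over all 21874 protein-coding genes the coefficient of density with coding length was 0.0587.

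The 10 genes of this length that the rule left out ran from above the densest member to the level of the low ones. Dync1h1, the heavy chain of cytoplasmic dynein, had 348 and 140 counts and 81.1 CPM per kb ± 16.2 (SD, n = 2), above every member. Map1a had 61.2 ± 8.53 (SD, n = 2), beside 61.3 for Lrp1, and Reln 28.4 ± 3.83 (SD, n = 2), beside 26.3 for Gm15800. Cdh23, a hair cell cadherin with 10065 coding nucleotides, had 3 and 0 counts.

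**Figure D5:**
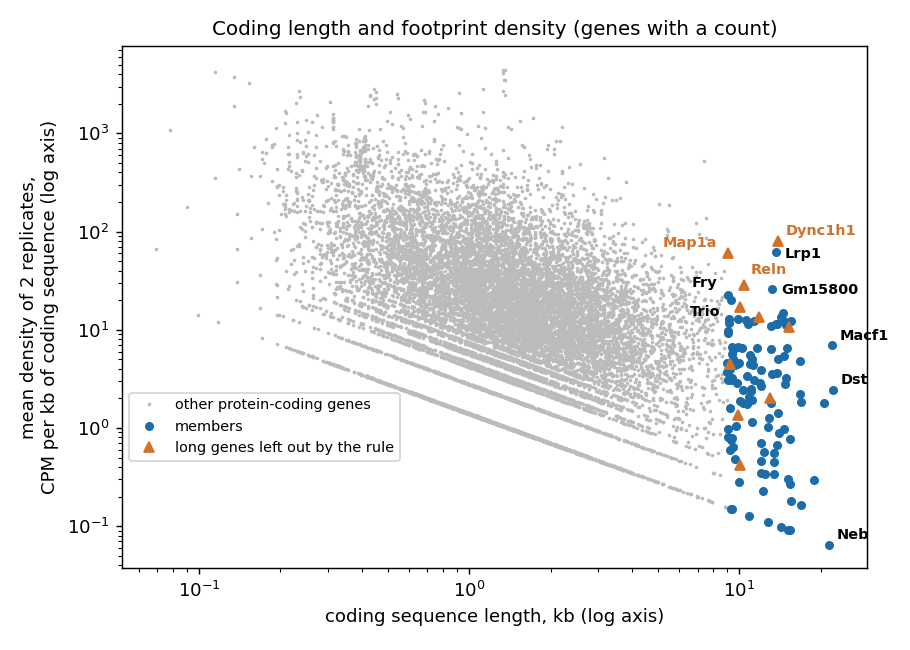
Mean footprint density against coding length, both on log axes, for protein-coding genes with at least 1 count, with the members in blue and the long genes left out by the rule as orange triangles. The members span about the lowest densities that 1 count can give (Neb, 1 count in replicate 1) to Lrp1 at 61.3 CPM per kb, and 0 of them exceed the 90th percentile of coding genes at 67.3.

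The length limit cut through a continuous series. Just inside it were Trank1 at 9000 nucleotides (14 and 3 counts), Fryl at 9024 (13 and 5) and Fry at 9063 (72 and 23). Just outside it were Cenpf at 8994 (9 and 1 counts), Chd7 at 8961 (6 and 5) and Helz2 at 8913 (1 and 0).

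Further features of gene structure were set beside the coding length. Untranslated regions made up a median of 6.10% of the representative transcript, against 38.5% over all protein-coding genes. The coding sequence is part of that transcript, so a long one lowers this share by construction. The median genomic span was 142 kb against 17.4 kb, from 13.8 kb (Hrnr) to 2390 kb (Dmd), and 4 members spanned over 1000 kb: Dmd, Lrp1b, Csmd1 and Csmd3. In that order, these 4 had mean densities of 2.39, 5.06, 3.42 and 1.92 CPM per kb, beside a median of 1.89 over all members.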

How the data were processed

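Footprints were measured in 2 replicates of 1 group. The authors deposited 1 table of raw footprint counts per transcript, with annotated region lengths, another unit of that file, in nucleotides; fragments had been size selected at 25 to 35 nucleotides, per the labels' protocols. Trimmomatic 0.36, Bowtie2 2.2.6, SAMtools and the build GRCm38.p4 are listed in the submitters' processing notes; the counting rule, the handling of multiple matches and the annotation release are not given in the sources used here. The table totals were 729027 and 225075. Over 208 pairs of isoforms with equal coding length and transcript lengths within 2%, the squared difference over the sum of their counts averaged 0.479 and 0.456, where equal counting of every match gives 0 and separate counting about 1. Isoforms were therefore never summed.

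Coding genes were represented by their longest coding isoform (11 members had ties, broken by transcript length, then identifier) and other genes by the isoform with the highest count. CPM used edgeR 4.0.16 effective library sizes (TMM factors 1.07 and 0.931 from genes averaging 10 counts or more), so that 1 count was worth 2.79 and 9.22 CPM. The exact binomial test (SciPy 1.17.1, 2-sided) was run on all 5221 genes past the filter with Benjamini-Hochberg adjustment at 0.05. It was checked on simulated data drawn with counting error alone, so the check does not cover further variation between libraries. Its p-values measure only a departure from counting error between these 2 libraries, and such a departure may be technical. The log2 ratio used a pseudocount of 1. Ratios of densities carry exact conditional 95% intervals; a count of 0 allows up to 3 counts. All 135 members were found in the RefSeq table (GRCm38.p6, whose chromosome coordinates match those of GRCm38.p4), and 21321 coding genes.

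The members, role lists and families were chosen with earlier results of these data known. Named were the 15 densest members, the related pairs, the densest of each list, members near 9000 nucleotides and up to 6 without counts; other named members were chosen after their values were seen. The alternatives were scaling, count filter, isoform, length, pseudocount, gene class, preset variation and each replicate alone.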

Additional observations from a re-analysis of the deposited data

How the results depend on the processing

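No paired analysis was possible because only a single group exists. The number of members called between the replicates was 0 under all 6 alternatives (library totals, highest-count isoform, a minimum mean of 50 counts, no filter, the preset coefficient of variation, coding genes alone), with 0 to 5 at an unadjusted p under 0.05. The median density of 1.89 CPM per kb became 2.14 on the isoforms with the highest count and 1.72 per kb of whole transcript, which is longer by construction; it was 1.78 to 1.98 in the replicates alone. The members' share of counts, 0.662%, became 0.671% on the highest-count isoforms. The 45 members past the filter became 3 where 50 counts were required on average, and 26 to 59 in the replicates alone, by construction of the filter and the depth. The 11 pairs that differed became 10 on the highest-count isoforms, where Macf1 and Dst no longer differed in both replicates. In the replicates alone 12 to 16 pairs differed. A call there needs the interval of 1 replicate only, so by construction this number cannot fall below 11. The median log2 ratio of the members was between -0.066 and 0.28 under its alternatives. Replicate 2, with 116533 counts, limits the precision of most values. Where no cause is given, the cause was not tested.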
